A study of Rattus norvegicus with 15 samples.

Results

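The comparison described here set Rat1a cells that expressed mouse MYC K149R (R149), in which arginine replaces a lysine, against Rat1a cells that expressed mouse MYC of wild-type sequence (WT). It covered 6 of the 15 libraries of the data set, 3 of R149 and 3 of WT, with each library put in its group by its label. Every line was Rat1a, an immortalized rat fibroblast line, grown attached in high-glucose DMEM with 10% FBS, and every line carried a stably introduced construct. The other 9 libraries served as background: 3 carried an empty vector (EV), 3 carried MYC K158R (R158) and 3 carried MYC K323R (R323), which have the same exchange at other lysines. The labels name 1 stable line per construct and do not say whether it was a clone or a pool. Effects of the substitution and of the individual line therefore cannot be told apart. The labels call the replicates biological, so p-values measure the spread between cultures of the same line.

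MYC is a basic helix-loop-helix leucine zipper transcription factor. It pairs with MAX, binds E-box DNA and recruits coactivator complexes that contain histone acetyltransferases. MYC raises many genes of ribosome production, metabolism and growth and lowers others, among them genes of adhesion and matrix in fibroblasts. Acetyltransferases such as p300, GCN5 and TIP60 also acetylate lysines of MYC itself. Arginine keeps the positive charge of lysine but cannot be acetylated. Rat1a cells are widely used to test MYC, because raised MYC lets them grow without attachment. The comparison asks which RNAs differ between the line with K149R and the line with wild-type MYC.

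The tables name genes by rat Ensembl identifier alone, and 0 of 32545 identifiers could be paired with a symbol here. The genes are therefore described as groups, with 2 rises and 2 falls by identifier, the largest among called genes that averaged at least 1 CPM in R149 or WT (CPM are counts scaled by library total and composition). Myc itself and fibroblast markers could not be read, so neither the construct nor the cell type was checked against the labels.

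Both lines had a replicate 1 library that stood apart from replicates 2 and 3. The 6 libraries held 23046620 to 108933235 counts. After thinning to 13303631 counts each, R149 replicate 1 had 13677 genes with a count, against 15340 and 15374 in R149 replicates 2 and 3. WT replicate 1 had 14871, against 15587 and 15636 in the other WT libraries. Replicate 1 also had the fewest of its line in EV (15384), R158 (15056) and R323 (15079). Replicates 2 and 3 of those lines had 15359 to 15622, so the order was shared by all 5 lines. Among 12024 genes that averaged 1 CPM or more, R149 replicates 2 and 3 were at least 2-fold apart for only 10 genes. R149 replicate 1 was at least 2-fold from them for 700 and 705 genes, and in 598 and 623 of these it was the lower library. WT replicates 2 and 3 were 2-fold apart for 73 genes, and WT replicate 1 differed from them for 465 and 566. Between the lines, libraries of equal replicate number differed by 2-fold for 566, 268 and 352 genes. For replicate 1 this was fewer than the genes that set R149 replicate 1 apart from its own line, and for replicates 2 and 3 it was more than the 10 and 73 genes within the lines. The largest distance was the 1201 genes between R149 replicate 1 and WT replicate 3. The part of replicate 1 in each result was not tested beyond the values without these libraries.

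**Figure D1:**
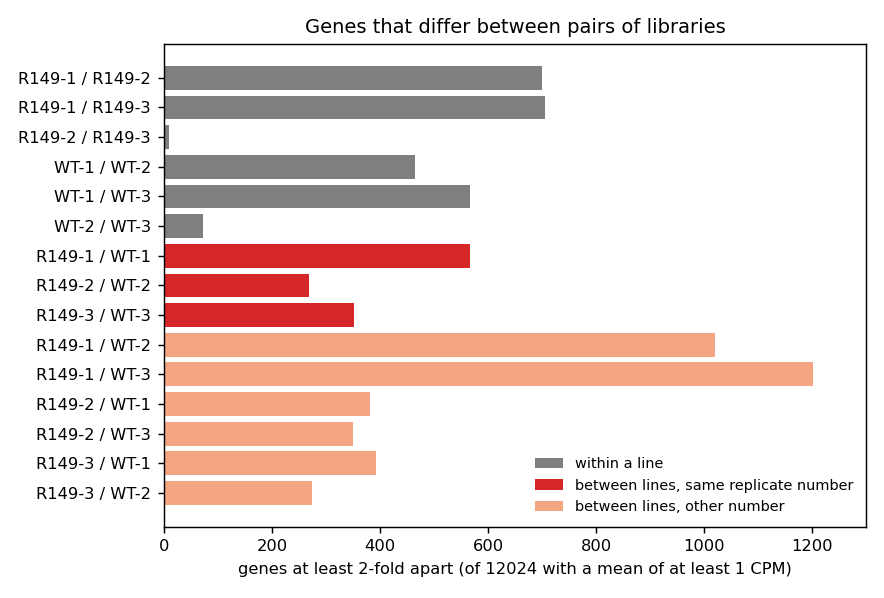
Number of genes at least 2-fold apart (horizontal axis, of 12024 genes with a mean of at least 1 CPM) for each pair of the 6 libraries, written as line and replicate number. Grey bars are pairs within a line, red bars are pairs of R149 and WT with the same replicate number and light bars are other pairs of R149 and WT; the bars of R149-2 with R149-3 (10 genes) and WT-2 with WT-3 (73 genes) are the shortest, and every other pair that includes R149-1 reaches at least 566 genes.

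R149 differed from WT in few genes of the fit over all libraries, and most of these were lower in R149. Of 13676 genes tested, 162 were called (1.18%, edgeR adjusted p below 0.05), 136 lower (0.994%) and 26 higher (0.19%). Falls were also larger than rises. Falls of at least 2-fold were seen for 101 of the 136 genes, of at least 4-fold for 58 and of at least 8-fold for 35, while 8, 2 and 1 of the 26 higher genes reached these sizes. The median log2 difference was -1.71 for the lower and 0.70 for the higher genes, against 9.7e-05 over all genes tested. The 3 R149 libraries lay wholly below the 3 WT libraries for all 136 lower genes and wholly above them for all 26 higher genes. The same held for 1155 (8.45%) and 1037 (7.58%) of all genes tested, so a lack of overlap alone is common in these 6 libraries. The gene just inside the threshold had an adjusted p of 0.0498, and the first outside it had 0.05002.

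**Figure D2:**
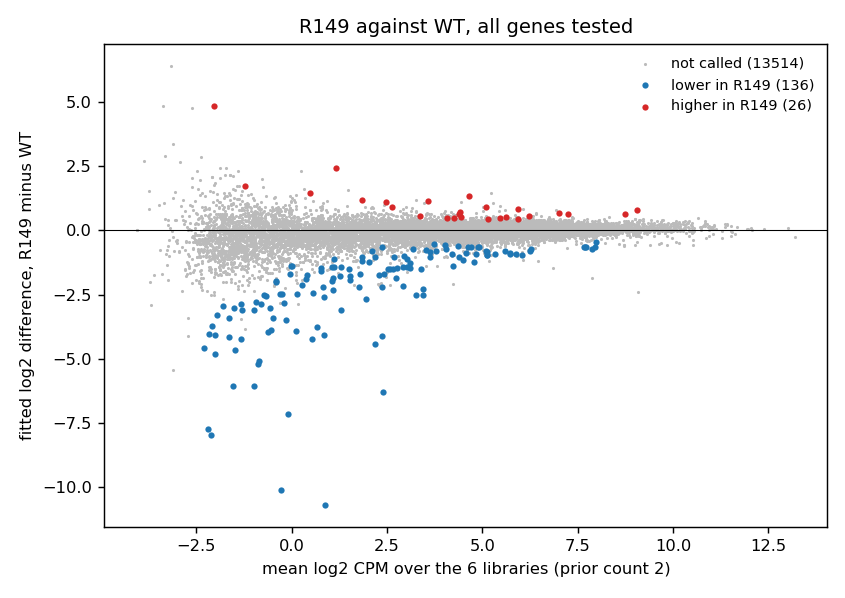
Fitted log2 difference of R149 minus WT (vertical axis) against the mean log2 CPM of the gene over the 6 libraries (horizontal axis), 1 point per gene tested. Blue points are the 136 genes called lower in R149, red points the 26 called higher and grey points the genes not called; falls extend to -10.69, and most of the largest falls are at low levels.

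The number of genes depended on how replicates entered the test. All 162 genes kept their direction with a block, with replicates 2 and 3 alone, and without either replicate 1. That could hardly be otherwise, because R149 and WT libraries did not overlap for any of the 162 genes. The kept direction is thus not a test of the calls. Adding the replicate number to the fit as a block raised the count to 510 genes, 378 lower and 132 higher. With replicates 2 and 3 of every line alone, 1323 of 13798 genes (9.59%) were called, 907 lower and 416 higher, and 68.6% of calls were thus lower against 84% in the fit of all 15 libraries. Both fits kept nearly all of the genes: the block kept all 136 lower and 26 higher genes, and replicates 2 and 3 kept 135 and 25. Differences were smaller over the longer lists, with a median log2 difference of -0.92 for lower genes with the block and -0.88 with replicates 2 and 3. Without R149 replicate 1, 129 genes were lower and 29 higher, of which 105 and 16 were among the 136 and 26. Leaving out WT replicate 1, 2 or 3 gave 356, 76 or 79 genes, and leaving out R149 replicate 2 or 3 gave 83 or 76. The 6 libraries fitted alone gave 54. In every fit that left out 1 of the 6 libraries, 57 of the 136 lower and 5 of the 26 higher genes were called.

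The 136 lower genes were mostly RNAs of low to middle abundance, and their median level was lowest in R149. Their median over the genes was 1.47, 1.74 and 1.59 CPM in R149 replicates 1, 2 and 3, and 5.42, 7.43 and 8.42 CPM in the WT libraries. The WT and R149 values follow from the choice of the genes. Genes chosen for R149 far below WT will also tend to have R149 as their lowest line and the other lines between, so the levels of EV, R158 and R323 are given as a description. The EV libraries stood at 6.01 to 6.70 CPM, close to WT. The R158 libraries stood at 3.92 to 4.50 CPM and the R323 libraries at 2.09 to 3.34 CPM, between R149 and WT. Gene by gene, the R158 mean lay between the R149 and WT means for 109 of 136 genes and the R323 mean for 94, while the R323 mean was below both for 28. EV had the highest mean of the 5 lines for 66 of the genes and WT for 55, and R149 had the lowest for 101. R149 replicate 1 had 0 counts for 29 of the 136 genes, against 4 and 3 in R149 replicates 2 and 3 and 0 in each WT library. Of all genes tested, R149 replicate 1 had 578 at 0 and the other R149 libraries 16 and 6, so zeros in this library were not confined to the lower genes.

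Among the 35 genes lower by at least 8-fold, WT had a mean of at least 1 CPM for 25, EV for 19, R158 for 12, R323 for 5 and R149 for 2. The median of these genes was 2.53 CPM in WT, 1.08 CPM in EV, 0.337 CPM in R158, 0.234 CPM in R323 and 0.0726 CPM in R149. Most of them were thus close to silent in R149, which follows in part from choosing large falls from a low WT level. Their medians in R158 and R323 were also under 1 CPM. A narrower group of 5 genes had at least 1 CPM in every WT library and under 0.1 CPM in every R149 library. Such a gap makes a call likely, and all 5 were called. No EV or R323 library reached 1 CPM for any of the 5, and the R158 libraries stayed under 1 CPM for 4. The reverse pattern, at least 1 CPM in every R149 library and under 0.1 CPM in every WT library, was shown by 0 genes.

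The 26 higher genes were more abundant and differed by less. Their median was 28.4, 27.2 and 26.9 CPM in R149 replicates 1, 2 and 3 and 17.3, 17.0 and 18.0 CPM in the WT libraries. The EV libraries stood at 17.3 to 21.3 CPM, near WT. The R158 libraries stood at 22.5 to 24.7 CPM and the R323 libraries at 26.9 to 29.0 CPM, so R323 was at the level of R149 for this group. R149 had the highest mean of the 5 lines for 16 of these genes, and WT the lowest for 10. Of the 26 genes, 19 had a mean of at least 10 CPM in R149 and 17 in WT, while 34 of the 136 lower genes did in R149 and 59 in WT. The highest mean of a higher gene was 701 CPM in R149, beside 404 CPM as the highest in WT.

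**Figure D3:**
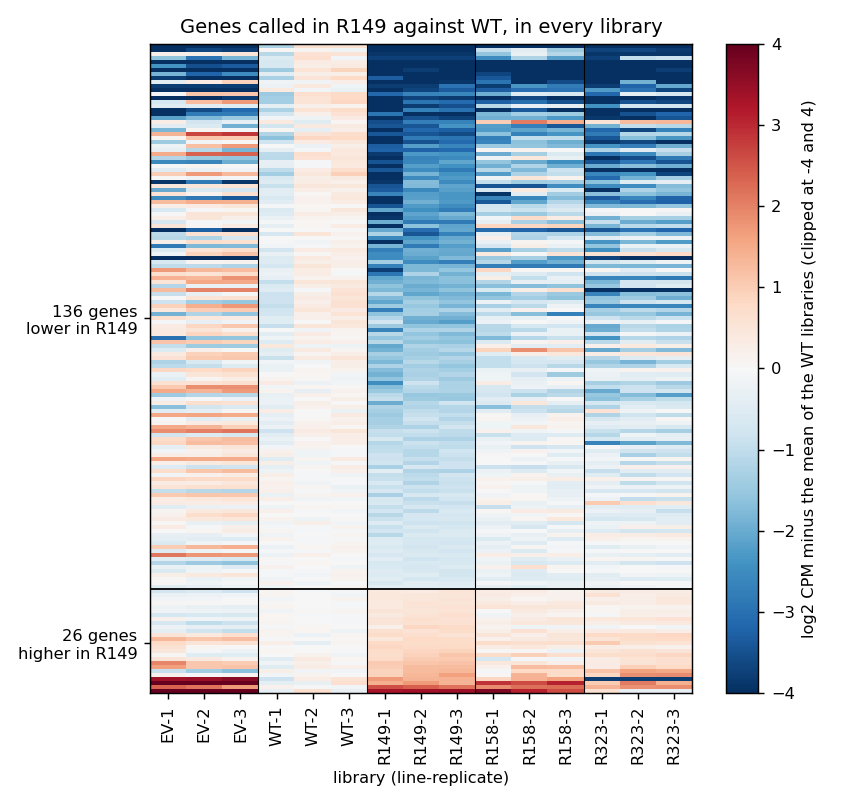
Each row is 1 of the 162 genes called in R149 against WT, sorted by the size of the difference, and each column is 1 of the 15 libraries; colour gives log2 CPM minus the mean of the WT libraries, blue for lower and red for higher, clipped at -4 and 4. The 136 genes above the line are blue in the R149 columns and paler on the whole in the R158 columns, and R149-1, with 29 of these genes at 0, is the darkest column among the largest falls.

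Genes lower in R149 came mostly from the lower part of the abundance range. Genes were ranked by their mean in EV, R158 and R323, lines outside the contrast of R149 with WT. Their libraries did share its fit, with the filter, scaling and estimate of spread. In the least abundant quartile of 3419 genes (median 1.12 CPM), 70 (2.05%) were lower in R149 and 5 (0.146%) higher. The shares of lower genes were 1.11%, 0.468% and 0.351% in the next quartiles (medians 12.5, 39.9 and 125 CPM), and those of higher genes 0.205%, 0.292% and 0.117%. The median log2 difference over all genes of a quartile was -0.15, -0.01, 0.01 and 0.04 from the least to the most abundant. Lower genes thus became rarer with abundance in EV, R158 and R323, and higher genes did not follow the same order. The ranking leaves out WT, so a gene found in quantity in WT alone, such as ENSRNOG00000052880, ranks low and counts as a fall. R149 replicate 1 also had 0 counts for 578 of the genes tested, and these were low in the other R149 and WT libraries too. The part of either in the order of the quartiles was not tested.

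The largest fall was that of ENSRNOG00000052880, an RNA found in quantity in WT alone. It had 17.9, 66.5 and 65.7 CPM in WT replicates 1, 2 and 3 and 0, 0.0230 and 0.0374 CPM in the R149 libraries. All other libraries were low as well, with at most 0.0655 CPM in EV and 0.117 CPM in R158 and R323. The fitted log2 difference of R149 from WT was -10.69 ± 0.67 (SE), with an edgeR adjusted p of 3.8e-07. Here and below, SE is the size of the log2 difference divided by the square root of its F statistic. It is not a separately estimated standard error and can be too small where counts are few. The difference rests on 5 counts summed over R149 and 4459 over WT, a ratio of 1758 with a 95% counting interval of 753 to 5418. R149 was not called different from EV (adjusted p 0.74), in a comparison that called 38.5% of genes. It was not called different from R158 (adjusted p 0.84, 1.27% of genes called) or from R323 (adjusted p 0.85, 1.07% called) either. With so few counts in these lines, the lack of a call does not show equal levels, and no limit of detection was computed.

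The next fall, of ENSRNOG00000051360, had another pattern across the lines, with R149 apart from every other line. WT had 10.6, 11.0 and 9.08 CPM and R149 had 0, 0.0230 and 0 CPM in replicates 1, 2 and 3. R158 stood at 5.34, 7.41 and 3.78 CPM. EV (0.303, 0.764 and 0.698 CPM) and R323 (0.733, 0.758 and 0.664 CPM) were low but above every R149 library. The log2 difference from WT was -10.11 ± 0.53 (SE, adjusted p 5.4e-08). The 3 R149 libraries held 1 count of this gene and the WT libraries 976, a ratio of 1924 with a 95% counting interval of 345 to 76084. That interval is far wider than the SE, so the SEs of R149 for this gene understate the uncertainty. Differences of R149 from EV (-6.06 ± 0.66, adjusted p 9.4e-06), R158 (-9.23 ± 0.54, adjusted p 2.8e-07) and R323 (-6.29 ± 0.65, adjusted p 1.1e-04) were called too. WT was higher than EV by 4.05 ± 0.33 (adjusted p 1.6e-06), in a comparison that called 26.8% of genes. This gene was thus called higher than EV with wild-type MYC and lower than EV with MYC K149R.

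Among called genes that averaged at least 1 CPM in R149 or WT, the largest rise was that of ENSRNOG00000046366, for which WT was the line that stood apart. The 1 higher gene past 8-fold lay below this level and is not described. R149 had 5.85, 5.08 and 4.39 CPM and WT had 1.03, 0.883 and 0.852 CPM in replicates 1, 2 and 3. EV (3.11 to 4.95 CPM), R158 (3.61 to 4.53 CPM) and R323 (2.48 to 3.51 CPM) lay near R149, and no library of these lines reached down to WT. The log2 difference of R149 from WT was 2.45 ± 0.23 (SE, adjusted p 3.5e-05). R149 was not called different from EV, with a log2 difference of 0.29 ± 0.21 (adjusted p 0.286), while WT was lower than EV by a log2 difference of -2.16 ± 0.23 (adjusted p 1.7e-05).

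The next rise above that level, of ENSRNOG00000018992, was smaller and less firmly called. R149 had 2.66, 2.07 and 2.15 CPM and WT 0.408, 0.971 and 1.15 CPM. EV was far above both at 8.53 to 10.4 CPM, R158 stood at 1.41 to 2.50 CPM, and the R323 libraries had 0 counts in all. The log2 difference of R149 from WT was 1.47 ± 0.32 (SE, adjusted p 0.0455). It passed the threshold in 6 of 17 alternatives, with adjusted p between 8.3e-04 and 0.286, and the highest came from the 6 libraries fitted alone. Both lines were lower than EV, by log2 differences of -2.02 ± 0.29 in R149 (adjusted p 1.8e-04) and -3.49 ± 0.33 in WT (adjusted p 1.2e-05). Without any 1 of the 6 libraries the gene was not called. R149 was at least 54.4-fold higher than R323 (3 counts over the R323 group, or 0.0410 CPM, taken as the limit, adjusted p 4.7e-05) and was not called different from R158 (log2 difference 0.17 ± 0.31, adjusted p 0.929).

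**Figure D4:**
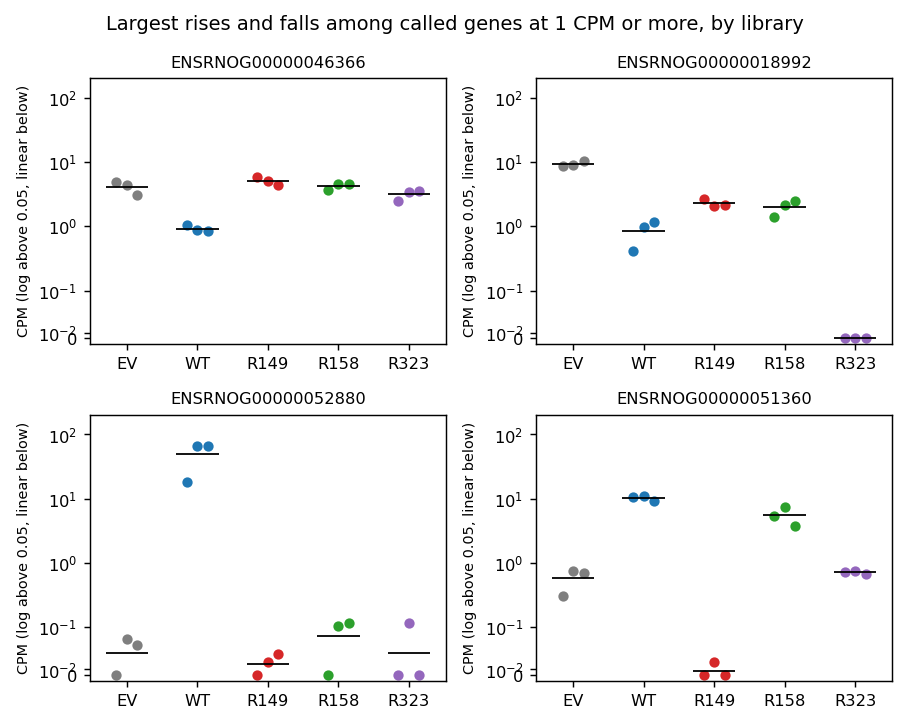
CPM of the 4 genes in each of the 15 libraries (points, in replicate order from left to right within a line) with the mean of each line as a bar; the vertical axis is logarithmic above 0.05 CPM and linear below it. ENSRNOG00000052880 is high in WT alone, ENSRNOG00000051360 has R149 as its lowest line, ENSRNOG00000046366 has WT as its lowest line, and ENSRNOG00000018992 is at 0 in R323.

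Genes that differed between R149 and WT were then followed in the other lines. The mean of R158 and R323 was tested against EV, a contrast without R149 or WT libraries. Both contrasts came from 1 fit with the same estimate of spread for each gene, so their calls are not fully independent. The contrast with EV called 4768 genes (34.9%), 2283 higher (16.7%) and 2485 lower (18.2%). Lower or higher in R158 and R323 refers to this mean, and 1 of the 2 lines can carry a call. ENSRNOG00000051360 was called higher than EV, with means of 5.51 CPM in R158, 0.718 CPM in R323 and 0.588 CPM in EV. Of the 136 genes lower in R149 than in WT, 77 (56.6%) were lower in R158 and R323 than in EV and 13 (9.56%) higher. Of the 26 genes higher in R149, 13 (50%) were higher in R158 and R323 than in EV and 5 (19.2%) lower. The median log2 difference of R158 and R323 from EV was -0.76 for the lower genes and 0.28 for the higher genes, against 0.01 for all genes tested. For both groups, calls of the mean of R158 and R323 in the same direction were thus more frequent than over all genes tested. This holds for the fit of all 15 libraries, but for the higher genes it rests on single libraries. Whether each of the 2 lines responded was not tested. With the replicate block the corresponding counts were 252 of 378 lower genes (66.7%, against 22.8% of all genes) and 75 of 132 higher genes (56.8%, against 21.4%). With replicates 2 and 3 alone they were 592 of 907 (65.3%, against 24.9%) and 223 of 416 (53.6%, against 21.3%). Without R149 replicate 1 they were 76 of 129 (58.9%, against 20.6%) and 12 of 29 (41.4%, against 18.3%), while 8 of the 29 higher genes (27.6%) were lower in R158 and R323, against 20.6% of all genes. Leaving out 1 library changed the 77 genes together with the number of lower genes. The count was 170 of 295 without WT replicate 1 (57.6%, against 19.3% of all genes). It was 38 of 67 and 40 of 71 without WT replicates 2 and 3, and 41 of 76 and 37 of 69 without R149 replicates 2 and 3. These counts thus moved with the length of the list. Without EV replicate 2 it was 50, and the number of lower genes was not recorded for that fit. Without WT replicate 1 the 13 higher genes became 32 of 61. Without WT replicate 2, 2 of 9 higher genes were raised in R158 and R323 and 3 lowered, and without WT replicate 3, 1 of 8 was raised and 3 lowered, so the balance of the higher genes turned. It was 3 of 7 raised and 1 lowered without R149 replicate 2, and 2 of 7 raised and 1 lowered without R149 replicate 3. The 13 became 5 without EV replicate 2 or 3, 6 without R158 replicate 3 and 8 without R323 replicate 2 or 3, so this count rests on few genes. The number of genes called higher in R149 was not recorded for these fits. Whether the share changed, or the length of the list alone, can therefore not be read from these counts.

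The same mean of R158 and R323 against EV was used to class all genes. Its libraries are outside the contrast of R149 with WT but in the same fit. The level of all genes in R149 against WT was then read in each class. For 838 genes at least 2-fold lower in R158 and R323 than in EV, the median log2 difference of R149 from WT was -0.38, and 77.6% of them had a lower fitted level in R149. The medians in libraries of equal number were -0.30, -0.37 and -0.50 for replicates 1, 2 and 3, a spread of 0.10 (SD, n = 3 pairs). Of these 838 genes, 54 (6.44%) were called lower in R149 than in WT and 3 (0.358%) higher, against 0.994% and 0.19% of all genes tested. For 1647 genes lower by less than 2-fold the median was -0.09, with 23 genes (1.40%) called lower and 2 (0.121%) higher. The 8908 genes not called in R158 and R323 had a median of 0.00305, with 46 (0.516%) called lower and 8 (0.0898%) higher. For 2036 genes higher by less than 2-fold the median was 0.09, with 6 (0.295%) called lower and 7 (0.344%) higher. For 247 genes higher by at least 2-fold it was 0.14, with 7 genes (2.83%) called lower and 6 (2.43%) higher. In this last class the medians of the pairs were 0.11, 0.08 and 0.33 with an SD of 0.13, and 38.1% of its genes had a lower fitted level in R149. The differences in level thus followed the direction of the mean of R158 and R323 in all 3 pairs, for lowered and raised genes. The share called lower in R149 was above that of all genes in both lowered classes and in the class raised most. Without R149 replicate 1 the median of the 838 genes was -0.32, and over all fits that left out 1 of the 6 libraries it lay between -0.55 (without WT replicate 1) and -0.28 (without WT replicate 3).

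**Figure D5:**
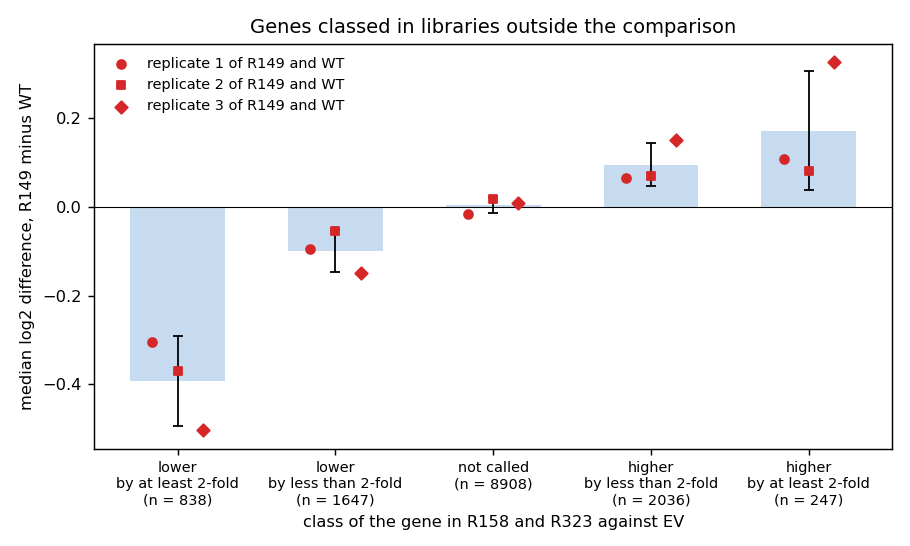
Median log2 difference of R149 minus WT (vertical axis) for genes classed by the mean of R158 and R323 against EV (horizontal axis, with the number of genes); points are the medians of the 3 pairs of libraries with equal replicate number, bars their mean and error bars their SD. The pairs lie between -0.50 and -0.30 in the class lowered most and between 0.08 and 0.33 in the class raised most.

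R149 was also compared with the mean of the other substituted lines. A gene called in this comparison need not separate R149 from both of them. ENSRNOG00000018992 was called higher here, although R149 was not called different from R158 for it. Against the mean of R158 and R323, 122 genes were called (0.892%), 86 lower (0.629%) and 36 higher (0.263%) in R149. By at least 2-fold, 34 genes were lower and 15 higher, and the medians of the log2 differences were -0.84 and 0.89. The 3 R149 libraries did not overlap the 6 R158 and R323 libraries for 72 of the 86 lower and 29 of the 36 higher genes, beside 585 of all 13676 genes tested. The 86 lower genes had a median of 10.3 CPM in R149, 20.4 CPM in R158 and 19.4 CPM in R323. In lines outside this contrast, though in the same fit, they stood at 15.9 to 17.5 CPM in WT and 24.7 to 26.3 CPM in EV. The 36 higher genes had a median of 23.0 CPM in R149, 13.6 CPM in R158 and 8.96 CPM in R323, beside 14.9 to 18.7 CPM in the WT and 10.9 to 11.8 CPM in the EV libraries. For both groups, WT thus lay between R149 and EV. These genes were chosen for R149 apart from R158 and R323, so other lines will tend to lie on the inner side of R149. R158 and R323 also lay between R149 and EV for the lower genes, and R158 for the higher genes. The position of WT is therefore given as a description.

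WT against EV contrasts other libraries than R149 against R158 and R323, but both share the fit and its estimate of spread. WT against EV called 12.6% of all genes higher and 14.1% lower. Of the 86 genes lower in R149 than in the other mutants, 36 (41.9%) were lower in WT than in EV and 11 (12.8%) higher. Of the 36 genes higher in R149, 19 (52.8%) were higher in WT than in EV and 3 (8.33%) lower. The comparison of R149 with the other mutants called 321 genes with the replicate block and 506 with replicates 2 and 3 alone. It called 93 without R149 replicate 1, 40 and 37 without R149 replicates 2 and 3, 76 without R158 replicate 3, and 61 and 65 without R323 replicates 2 and 3.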

How the data were processed

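Column-purified RNA went into stranded (dUTP) mRNA libraries, per the labels' protocols. Tools listed in the submitters' processing notes are TopHat2 2.1.0 with the Rnor_6.0 build. Neither the counter nor its strand setting or annotation is given in the sources used here, so overlapping, antisense and near-identical genes are uncertain. The deposited values are raw counts per gene, without normalization. Of 32545 genes, 13676 (99.98% of counts) passed filterByExpr with a minimum of 10. All 15 libraries, of 13303631 to 108933235 counts, entered 1 edgeR 4.0.16 quasi-likelihood fit (R 4.3.3, TMM factors, the line as the only term), adjusted by Benjamini-Hochberg over all genes and tested on simulated data. Alternatives used limma 3.58.1 and DESeq2 1.42.0. Levels are CPM with TMM scaling, and log2 CPM has a prior count of 2.

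Deviations from the line means correlated between R149 and WT libraries of equal number (0.39, 0.24 and 0.21 for replicates 1, 2 and 3, across genes), so values with the replicate block are given. The labels do not say what the numbers share. No replicate pair agreed within counting noise (chi-square per degree of freedom at least 19).

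Genes named by identifier were called, had a mean of at least 1 CPM in either line and no overlap between the lines, and had the 2 largest rises and falls. The gene lists needed symbols and were not run. The comparison, its members and its lists were chosen with earlier results of these data known. The contrast of R158 and R323 with EV was added after the data were seen. Counting intervals and limits cover counting error only.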

Additional observations from a re-analysis of the deposited data

How the results depend on the processing

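Counts of genes moved with the setting. The direction of all 162 genes was compared in 5 alternatives (the block, DESeq2, replicates 2 and 3 alone, and without R149 or WT replicate 1) and was kept in each. With no overlap between R149 and WT libraries for these genes, a change of direction was hardly possible. The 162 genes of R149 against WT (26 higher, 136 lower) became 510 (132 and 378) with the replicate block, 391 (92 and 299) with DESeq2, 1323 (416 and 907) with replicates 2 and 3 alone, 54 (6 and 48) with the 6 libraries alone, and 282 (66 and 216) with these 6 and the replicate block. With library size alone 14 were higher. Leaving out 1 library gave 76 to 356 genes, 7 to 61 higher and 67 to 295 lower. R149 against the mean of R158 and R323 (122 genes) gave 321 with the block, 304 with DESeq2, 237 with its own 9 libraries and the block, 506 with replicates 2 and 3 alone and 37 to 135 without 1 library. WT against EV gave 2399 to 3363 without 1 library, and R149 against EV 3872 to 4758. Of 513 values under alternatives, 360 kept their size or call, 142 moved, 11 lost a call (all of ENSRNOG00000018992) and 0 reversed. Counts kept their size if they stayed within a set fold range, and medians if they moved by less than the SD of the pairs. Only the genes named by identifier, with 17 alternatives each, could lose a call or reverse. They were chosen for large differences without overlap, so the lack of reversals is not a test. Fits with replicates 2 and 3 or with the 6 libraries have few degrees of freedom. Where 1 library was left out, its line was represented by 2. Genes with few counts in R149 have fitted differences that rest on those few counts. The prior count of 2 belongs to log2 CPM and did not enter these fits.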

Other observations

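The 578 tested genes with 0 counts in R149 replicate 1 were low in the other libraries too. Their median was 0.299 CPM in R149 replicate 2 and 0.300 CPM in R149 replicate 3. In WT replicates 1, 2 and 3 it was 0.272, 0.412 and 0.426 CPM. Of the 578 genes, 29 (5.02%) were among those called lower in R149 than in WT, against 0.994% of all genes tested. The zeros in that library and the calls share its counts.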
